A study of Trichoderma asperellum with 12 samples.

Results

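The comparison described here set the middle dose of dichlorvos against the low dose in mycelium of T. asperellum TJ01, a filamentous fungus used against plant pathogens. It used the 3 libraries of D500 (500 μg/mL dichlorvos, 24 h) and the 3 libraries of D100 (100 μg/mL, 24 h), which are 6 of the 12 libraries of the series. Both groups were the same strain, grown first in potato dextrose medium and then shaken in Burk broth at 28 °C and 180 rpm, so that the dose was the only difference the labels give. No library of the untreated group (CK) entered the comparison. The values are FPKM (fragment counts scaled to transcript length and library size), and genes were kept when they averaged at least 1 FPKM over these 6 libraries. This left 8747 of the 11647 genes of the table. The labels do not say whether the libraries of a dose came from separate cultures, so the p-values measure the spread between these libraries. Whether a lower level reflects fewer hyphae of 1 kind or less RNA in each cannot be told apart in such bulk samples.

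Dichlorvos is an organophosphate insecticide that inhibits acetylcholinesterase in animals, and it is also known in the test tube as a weak methylating agent of nucleic acids and proteins. Fungi meet foreign compounds with oxidation by cytochrome P450s and flavoenzymes, conjugation to glutathione, and export by ABC and MFS transporters. Damaged proteins are refolded by heat shock proteins or degraded by the proteasome, and damaged bases in DNA are reversed, excised or bypassed by separate repair enzymes.

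At D500, 274 genes were significantly upregulated relative to D100 and 74 genes were significantly downregulated, at a limma adjusted p under 0.05 and a change of more than 1 on the log2 scale. These are 3.13% and 0.846% of the genes tested, and higher genes made up 78.7% of the calls. In all 348 called genes the 3 D500 libraries lay on 1 side of the 3 D100 libraries, while over all genes tested 17.6% lay apart upwards and 11% downwards. The median change was 0.05 over all genes tested, 1.44 over the higher and -1.33 over the lower genes. A rise of more than 2 on the log2 scale was found in 77 genes and a fall of that size in 4. Without D500 replicate 2 the counts were 150 and 28, without D100 replicate 2 they were 178 and 30, and without D100 replicate 3 they were 201 and 47. Of the 274 higher genes, 130 were called in every fit that left 1 library out, as were 26 of the 74 lower genes. An annotation that names a function was available for 162 of the higher and 40 of the lower genes.

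**Figure D1:**
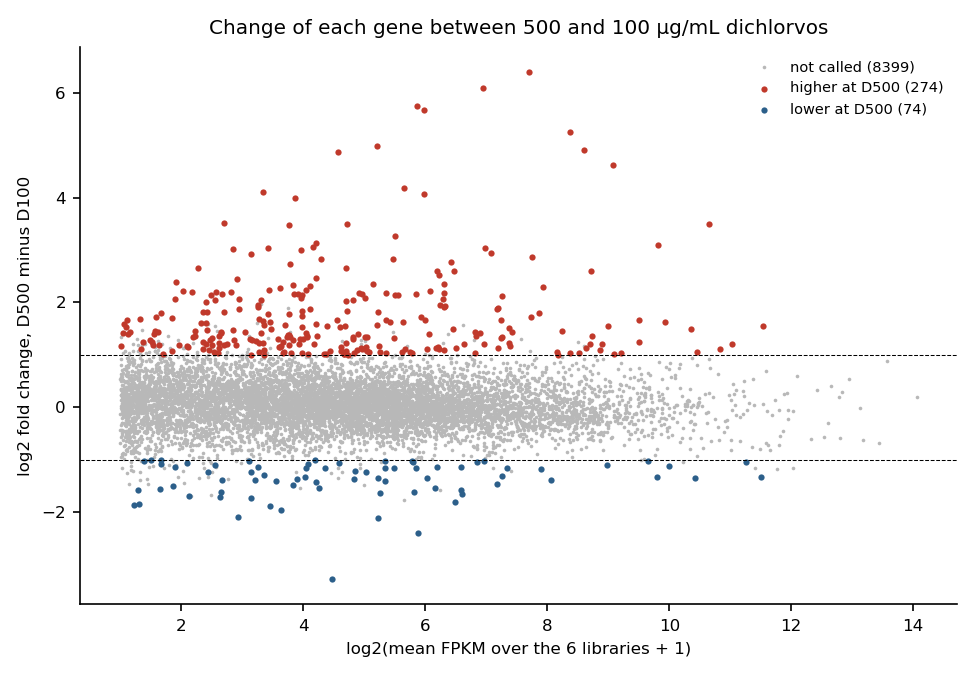
Each point is 1 of the 8747 genes tested, with the log2 of its mean FPKM plus 1 on the x axis and its log2 fold change (D500 minus D100) on the y axis. The 274 higher genes reach 6.40, the 74 lower genes reach -3.28, and the dashed lines mark changes of 1 and -1.

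Some of the large rises were in genes without a well-supported function. jgi_Trias1_49599, whose closest match is a hypothetical protein of another Trichoderma species, had 428, 383 and 426 FPKM in D500, against 2.23, 4.21 and 5.98 FPKM in D100 (log2 fold change 6.40, standard error 0.26, limma adjusted p = 5.15e-06). jgi_Trias1_149322, also without a named function, had 144, 237 and 343 FPKM in D500, against 2.41, 2.98 and 1.7 FPKM in D100 (log2 fold change 6.10, standard error 0.30, limma adjusted p = 1.93e-05). In both genes the lowest D500 library was many times above the highest D100 library. Another pair shares the KEGG entry for pelota, a factor that rescues stalled ribosomes, but with weak matches (E = 5e-23 and 3e-13). jgi_Trias1_173708 had 614, 617 and 706 FPKM in D500, against 14.1, 15.6 and 18.2 FPKM in D100 (log2 fold change 5.26, standard error 0.15, limma adjusted p = 9.34e-07). jgi_Trias1_445882 had 105, 114 and 148 FPKM in D500, against 0.50, 1.56 and 2.53 FPKM in D100 (log2 fold change 5.68, standard error 0.30, limma adjusted p = 2.55e-05). These 4 genes kept their calls when any 1 library was left out.

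Enzymes with a named function were also among the large rises. jgi_Trias1_57246 had 661, 689 and 901 FPKM in D500, against 22.7, 25.7 and 22.5 FPKM in D100 (log2 fold change 4.92, standard error 0.16, limma adjusted p = 1.61e-06). It is annotated as a carboxyvinyl-carboxyphosphonate phosphorylmutase, an enzyme of the isocitrate lyase superfamily known from antibiotic synthesis in Streptomyces (E = 1e-41). A selenocysteine lyase gene, jgi_Trias1_199110, had 59.6, 81.1 and 72.2 FPKM in D500, against 0.64, 1.44 and 1.8 FPKM in D100 (log2 fold change 5.0, standard error 0.24, limma adjusted p = 1.88e-05). These enzymes use pyridoxal phosphate to split selenocysteine or related substrates. The second gene of that entry, jgi_Trias1_38892, which was chosen after its values were seen, rose as well (2.20, limma adjusted p = 0.00493). An FMN-linked oxidoreductase, jgi_Trias1_63206, had 18.2, 25.2 and 25.1 FPKM in D500, against 2.79, 2.46 and 2.42 FPKM in D100 (log2 fold change 2.73, standard error 0.20, limma adjusted p = 0.000124). All 4 genes kept their calls in each fit with 1 library left out.

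Some genes for the repair of DNA were called higher at D500. jgi_Trias1_61459, annotated as a methylated-DNA-[protein]-cysteine S-methyltransferase, had 613, 874 and 1618 FPKM in D500, against 29.7, 42.3 and 41.6 FPKM in D100 (log2 fold change 4.64, standard error 0.32, limma adjusted p = 8.12e-05). This enzyme takes the methyl group from O6-methylguanine onto a cysteine of its own. The lowest D500 library was far above the highest D100 library, and the D500 libraries also spread widely among themselves. jgi_Trias1_57955, a second gene of the same KEGG entry, was below 1 FPKM in each D100 library and had 10.7, 15.1 and 9.58 FPKM in D500, against 0.33, 0.68 and 0.66 FPKM in D100 (log2 fold change 3.02, standard error 0.25, limma adjusted p = 0.000225). Both kept their calls when any 1 library was left out. A further gene of this kind, jgi_Trias1_142887, described as related to the methyltransferase and chosen after its values were seen, had 19.4, 20.9 and 14.4 FPKM in D500, against 4.67, 5.37 and 9.88 FPKM in D100 (1.38, limma adjusted p = 0.024). Its call was lost without D500 replicate 1 or 2 or D100 replicate 2.

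Of 118 tested genes in the list for DNA replication and repair, 16 were called higher and none lower (13.6% higher, against 3.13% over all genes). The median change of the list was 0.32, against 0.05 over all genes, and 89 members were above 0, as were 55.2% of all genes. jgi_Trias1_60408, with a weak match to RAD57 (E = 1e-14), had 245, 229 and 198 FPKM in D500, against 80.8, 63.2 and 42.4 FPKM in D100 (log2 fold change 1.88, standard error 0.23, limma adjusted p = 0.00235). The other gene of that entry, jgi_Trias1_138624, chosen after its values were seen, has the closer match (E = 5e-22) and was not called (0.00, limma adjusted p = 0.996). jgi_Trias1_26098, annotated as RAD16, had 28.03, 25.9 and 23.8 FPKM in D500, against 10.1, 10.2 and 8.2 FPKM in D100 (log2 fold change 1.36, standard error 0.17, limma adjusted p = 0.00302). In yeast Rad16 and Rad7 together find lesions in silent DNA for nucleotide excision repair, and the RAD7 gene jgi_Trias1_165496 had 23.6, 18.3 and 23.6 FPKM in D500, against 8.28, 7.76 and 8.47 FPKM in D100 (1.31, limma adjusted p = 0.00436). The 3 called genes did not overlap between the doses, as held for every called gene, and kept their calls when any 1 library was left out.

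The other called members of the list, chosen after their values were seen, cover excision, recombination and bypass of lesions. The excision nuclease genes ERCC-5 (jgi_Trias1_58071) and ERCC-4 (jgi_Trias1_64993), which cut on either side of a lesion, changed by 1.31 and 1.22 on the log2 scale, and ERCC-6 (jgi_Trias1_60621), which couples repair to transcription, by 1.14. For recombination, RAD52 (jgi_Trias1_60225), which anneals DNA strands, had 26.99, 23.02 and 18.5 FPKM in D500, against 11.1, 6.59 and 7.5 FPKM in D100 (1.36, limma adjusted p = 0.0125). RAD54 (jgi_Trias1_187873), a motor protein of strand exchange, changed by 1.17. jgi_Trias1_134330, 1 of 9 genes with the RAD50 entry (E = 2e-44), changed by 1.21, while the closest match to RAD50, jgi_Trias1_60685 (E = 7e-176), had a change of -0.61 and was not called (limma adjusted p = 0.0614). The bypass polymerases copy DNA past damaged bases. Here REV1 (jgi_Trias1_91056) had 22.03, 22.2 and 23.9 FPKM in D500, against 9.94, 9.65 and 6.01 FPKM in D100 (1.34, limma adjusted p = 0.00847), and polymerases eta (jgi_Trias1_129806) and iota (jgi_Trias1_135489) changed by 1.25 and 1.02. Levels of polymerase iota stayed low, between 3.14 and 3.63 FPKM in D500 and between 1.11 and 1.19 FPKM in D100. The bypass polymerases kappa (jgi_Trias1_92219) and zeta (jgi_Trias1_130390 and jgi_Trias1_23478), also chosen after their values were seen, changed by 0.60, 0.74 and 0.09 and were not called. A DNA helicase (jgi_Trias1_138285), DNA polymerase IV (jgi_Trias1_450100), DNA ligase 1 (jgi_Trias1_132482) and subunit 3 of DNA polymerase delta (jgi_Trias1_27724) changed by 1.34, 1.22, 1.01 and 1.0. Other genes of the RAD54, ERCC-6, ERCC-4, REV1, polymerase IV and ligase 1 entries, also chosen after their values were seen, were not called. The RAD54 genes jgi_Trias1_156404 and jgi_Trias1_55801 changed by 0.34 and 0.12, and the ERCC-6 gene jgi_Trias1_414934 by 0.67. The ERCC-4 genes jgi_Trias1_53262 and jgi_Trias1_129249 changed by 0.24 and 0.04, and the REV1 gene jgi_Trias1_49218 by 0.13. The polymerase IV gene jgi_Trias1_197009 changed by 0.67 (limma adjusted p = 0.19). The ligase 1 genes jgi_Trias1_150965, jgi_Trias1_86121 and jgi_Trias1_88820 changed by 0.40, -0.13 and -0.75. Of these, jgi_Trias1_197009 and jgi_Trias1_150965 match as closely as the called genes (E = 0.0). Of the called genes in this paragraph, ERCC-5, ERCC-4, REV1 and the helicase kept their calls when any 1 library was left out. Polymerase IV lost its call without D500 replicate 2, and RAD52 without D500 replicate 1 or 2 or D100 replicate 2. The RAD50 entry, ERCC-6 and polymerase eta each lost theirs in 4 of the 6 fits. RAD54, ligase 1 and the polymerase delta subunit lost theirs in 5, and polymerase iota in all 6. The number of called members of the list depends on single libraries and on the test. Without D500 replicates 1, 2 and 3, 10, 8 and 9 members were called higher, and 9 without D100 replicate 2 or 3. In a fit of all 4 groups 3 were called higher, and 1 by the NOISeq rule.

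Some base repair genes were outside the list because their descriptions do not match its search terms, and they were chosen after their values were seen. DNA-3-methyladenine glycosylase II (jgi_Trias1_58332), which excises alkylated purines, had 32.8, 28.8 and 34.4 FPKM in D500, against 16.1, 17.1 and 11.4 FPKM in D100 (1.07, limma adjusted p = 0.0157). AP endonuclease 1 (jgi_Trias1_171967), which cuts the DNA backbone at the site left by a glycosylase, had 52.9, 46.9 and 38.5 FPKM in D500, against 20.98, 15.3 and 16.7 FPKM in D100 (1.33, limma adjusted p = 0.00493). Formamidopyrimidine-DNA glycosylase (jgi_Trias1_55282), an enzyme for oxidised purines, had 22.3, 15.3 and 19.9 FPKM in D500, against 7.66, 7.58 and 6.47 FPKM in D100 (1.28, limma adjusted p = 0.00749). As in every called gene, the groups did not overlap. Polynucleotide phosphatase/kinase (jgi_Trias1_51810), which cleans the ends of strand breaks, changed by 1.22, MRE11 (jgi_Trias1_70057), the nuclease partner of RAD50, by 1.17, and the Bloom helicase entries jgi_Trias1_135347 and jgi_Trias1_27820 by 1.43 and 1.15. AP endonuclease 1 and formamidopyrimidine-DNA glycosylase kept their calls when any 1 library was left out. DNA-3-methyladenine glycosylase II lost its call without D500 replicate 1, 2 or 3 or D100 replicate 3, the kinase and MRE11 without D500 replicate 1 or 2 or D100 replicate 2 or 3, and both helicase genes whichever of the 6 libraries was left out.

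**Figure D2:**
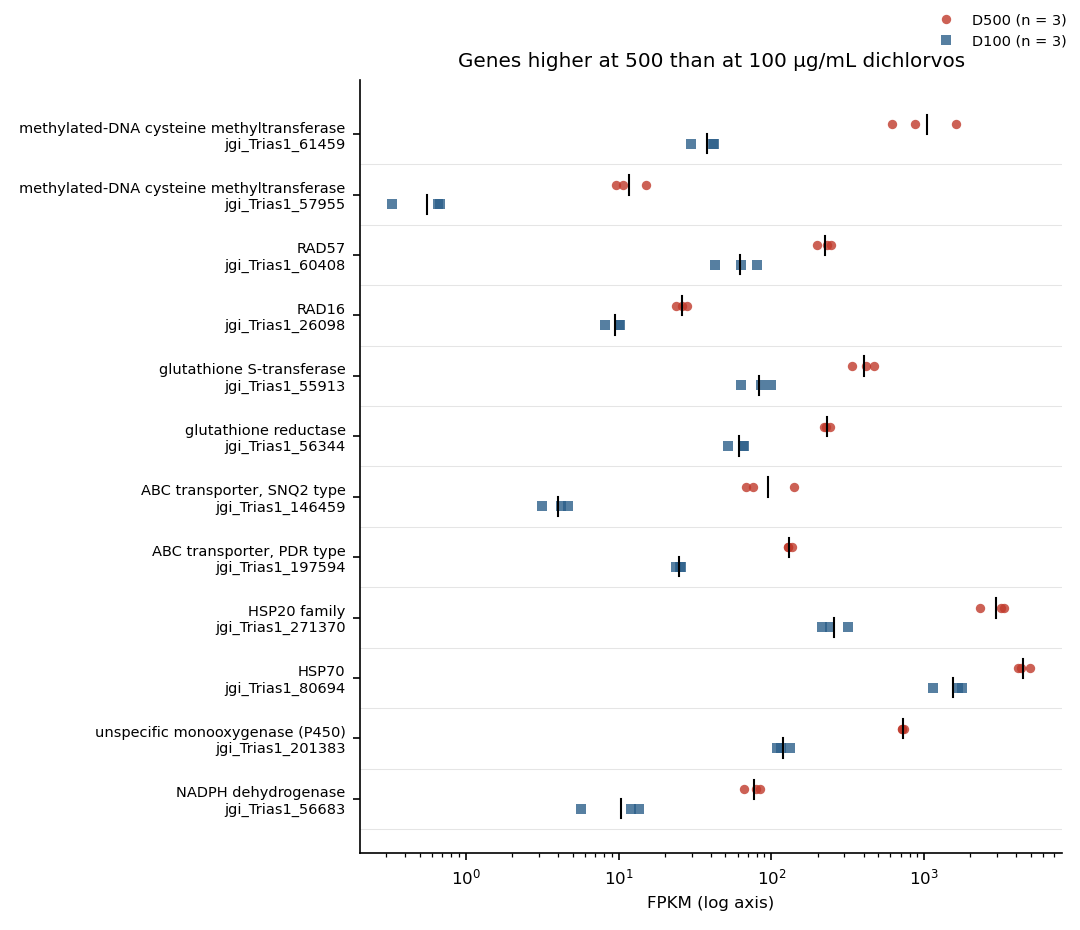
Each row is a gene, with the 3 D500 libraries (circles) above the 3 D100 libraries (squares), FPKM on a log axis and group means as vertical bars. In all 12 genes every D500 library lies above every D100 library, as in every gene called higher. jgi_Trias1_61459 had 613, 874 and 1618 FPKM in D500, against 29.7, 42.3 and 41.6 FPKM in D100.

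Glutathione is the main thiol of the cell, and glutathione S-transferases join it to electrophilic compounds. Of the 47 tested genes of the glutathione list, 10 were called higher (21.3%, against 3.13% over all genes) and none lower, with a median change of 0.29. The called genes jgi_Trias1_74481, jgi_Trias1_84683, jgi_Trias1_93559 and jgi_Trias1_30288 averaged under 1 FPKM in D100. They passed the filter on the mean only through D500, so their calls and p-values add no separate support. With a mean of at least 5 FPKM, 7 members were called higher. jgi_Trias1_155328 had 136, 102 and 116 FPKM in D500, against 5.34, 4.98 and 8.03 FPKM in D100 (log2 fold change 4.08, standard error 0.21, limma adjusted p = 1.93e-05). jgi_Trias1_44730 had 30.8, 23.2 and 38.1 FPKM in D500, against 3.49, 3.62 and 1.5 FPKM in D100 (log2 fold change 3.06, standard error 0.29, limma adjusted p = 0.000558). Both carry the entry for lactoylglutathione lyase, which detoxifies methylglyoxal, but with weak matches (E = 8e-10 and 1e-07). The transferase gene jgi_Trias1_74481 had 3.54, 6.51 and 9.44 FPKM in D500, against 0.53, 0.55 and 0.54 FPKM in D100 (log2 fold change 2.20, standard error 0.32, limma adjusted p = 0.00582), so that it crossed 1 FPKM at the middle dose.

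The remaining glutathione genes were chosen after their values were seen. The most abundant transferase, jgi_Trias1_55913, had 414, 335 and 466 FPKM in D500, against 63.3, 85.2 and 99.9 FPKM in D100 (log2 fold change 2.29, standard error 0.20, limma adjusted p = 0.00034). The transferase jgi_Trias1_62326 had 135, 115 and 134 FPKM in D500, against 23.4, 31.2 and 28.03 FPKM in D100 (2.18, limma adjusted p = 0.000111). Glutathione reductase (jgi_Trias1_56344), which returns oxidised glutathione to its reduced form, had 221, 226 and 240.1 FPKM in D500, against 66.3, 64.99 and 51.9 FPKM in D100 (log2 fold change 1.90, standard error 0.15, limma adjusted p = 0.000167). In these 3 genes the doses did not overlap, as in every called gene. The transferases jgi_Trias1_28093 and jgi_Trias1_93559 changed by 2.15 and 1.54, and the putative transferases jgi_Trias1_84683 and jgi_Trias1_30288, both under 7 FPKM, by 1.79 and 1.19. Of the calls in the list, 7 rested on KEGG matches with an E value of at most 1e-50. The call of jgi_Trias1_93559 was lost without D500 replicate 2 or 3 or D100 replicate 2, that of jgi_Trias1_84683 whichever library other than D100 replicate 2 was left out, and that of jgi_Trias1_30288 whichever of the 6 libraries was left out.

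Among other redox genes, thioredoxin 1 (jgi_Trias1_152954), a small protein that reduces disulfides, had 1069.6, 1123 and 1126 FPKM in D500, against 301, 415 and 334 FPKM in D100 (log2 fold change 1.67, standard error 0.16, limma adjusted p = 0.000524). It was the 1 called gene of the 14 tested in its list (7.14%, against 3.13% over all genes). Of 16 genes for catalases, peroxidases and superoxide dismutases, 1 was higher and 1 lower (6.25% each, against 3.13% and 0.846% over all genes). The manganese superoxide dismutase jgi_Trias1_73687, which turns superoxide into hydrogen peroxide, had 23.9, 15.8 and 30.5 FPKM in D500, against 6.51, 5.54 and 6.27 FPKM in D100 (log2 fold change 1.74, standard error 0.25, limma adjusted p = 0.00493). The catalase jgi_Trias1_52822, which breaks down hydrogen peroxide, moved the other way with 10.5, 9.16 and 9.6 FPKM in D500, against 25.5, 23.9 and 17.1 FPKM in D100 (log2 fold change -1.09, standard error 0.20, limma adjusted p = 0.0157), and its call was lost without D500 replicate 2 or D100 replicate 1 or 2. A methionine sulfoxide reductase (jgi_Trias1_143678), which repairs oxidised methionine, was higher by 1.62 (limma adjusted p = 0.0033) and was chosen after its values were seen.

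Cytochrome P450s and flavin monooxygenases oxidise foreign compounds. Of 53 tested genes of this list, 3 were higher (5.66%, against 3.13% over all genes) and 2 lower (3.77%, against 0.846%), with a median of 0.18. jgi_Trias1_201383, annotated as an unspecific monooxygenase, the general KEGG name for P450 enzymes, had 740.1, 717 and 716 FPKM in D500, against 132, 115 and 108 FPKM in D100 (log2 fold change 2.61, standard error 0.14, limma adjusted p = 2.26e-05). Its replicates were among the tightest of the genes named here. A phenol 2-monooxygenase entry, jgi_Trias1_140627, had 24.1, 10.2 and 9.73 FPKM in D500, against 1.65, 0.56 and 0.67 FPKM in D100 (log2 fold change 2.92, standard error 0.37, limma adjusted p = 0.00312). The other higher gene was jgi_Trias1_198776, a dimethylaniline monooxygenase, which is a flavin enzyme and not a P450 (1.43, limma adjusted p = 0.00119). It was chosen after its values were seen. Both lower P450 genes of the list were weakly expressed. jgi_Trias1_200792 had 0.86, 0.86 and 1.43 FPKM in D500, against 3.59, 3.04 and 3.31 FPKM in D100 (-1.08, limma adjusted p = 0.0364). jgi_Trias1_175388 had 1.18, 1.08 and 1.1 FPKM in D500, against 2.89, 3.26 and 3.6 FPKM in D100 (-1.0, limma adjusted p = 0.0388). Both of these calls were lost whichever of the 6 libraries was left out. The nitric oxide reductase jgi_Trias1_136021, described below, is also a P450 but is outside this list by its description. It was highly expressed and lower at D500 (-1.34, limma adjusted p = 0.00669).

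In the list of aldehyde and short-chain dehydrogenases and aldo-keto reductases, 4 of 30 tested genes were higher (13.3%, against 3.13% over all genes) and none lower, with a median of 0.30. Members were found by words in their descriptions, and none of the 4 higher genes is annotated as an enzyme of the list's name. The reductases jgi_Trias1_57207 and jgi_Trias1_156837 and pyridoxine 4-dehydrogenase (jgi_Trias1_42386), described below, were called lower and are not members. The list therefore does not show that such enzymes only rose. Of the 4 higher genes, 3 belong to the NADPH dehydrogenases, flavoenzymes of the old yellow enzyme type that reduce activated double bonds. jgi_Trias1_56683 had 79.6, 65.7 and 83.6 FPKM in D500, against 5.68, 11.99 and 13.6 FPKM in D100 (log2 fold change 2.83, standard error 0.29, limma adjusted p = 0.000763). jgi_Trias1_168167 had 8.19, 8.04 and 8.23 FPKM in D500, against 3.05, 1.85 and 2.38 FPKM in D100 (1.43, limma adjusted p = 0.00709). jgi_Trias1_76707 had 5.41, 5.62 and 8.51 FPKM in D500, against 2.02, 3.15 and 2.33 FPKM in D100 (1.09, limma adjusted p = 0.0386), and its call was lost whichever of the 6 libraries was left out. The remaining gene was a quinone reductase, jgi_Trias1_71200, with 134, 119.8 and 122 FPKM in D500, against 27.8, 28.7 and 30.5 FPKM in D100 (log2 fold change 2.07, standard error 0.14, limma adjusted p = 6.15e-05).

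ABC transporters use ATP to carry drugs and lipids across membranes. Of 37 tested ABC transporter genes, 6 were higher (16.2%, against 3.13% over all genes) and none lower. The median change was 0.42 and 33 members were above 0, as were 55.2% of all genes. jgi_Trias1_146459, annotated with SNQ2, a multidrug exporter of yeast, had 67.7, 76.01 and 140.0 FPKM in D500, against 3.18, 4.67 and 4.18 FPKM in D100 (log2 fold change 4.19, standard error 0.28, limma adjusted p = 6.19e-05). jgi_Trias1_60292, of the multidrug resistance subfamily B, had 127, 120.3 and 131 FPKM in D500, against 19.8, 23.2 and 20.3 FPKM in D100 (log2 fold change 2.53, standard error 0.14, limma adjusted p = 2.59e-05). A transporter of the PDR type, jgi_Trias1_197594, had 136, 129 and 128 FPKM in D500, against 25.4, 25.4 and 23.8 FPKM in D100 (log2 fold change 2.35, standard error 0.13, limma adjusted p = 2.59e-05). The last was chosen after its values were seen, as were jgi_Trias1_59384, jgi_Trias1_190301 and jgi_Trias1_139504, all of subfamily B, which changed by 1.39, 1.33 and 1.15. In all 6 genes the doses did not overlap, as in every called gene. Across the list this held upwards for 20 members (54.1%, against 17.6% over all genes). The count of 6 fell to 3 without D500 replicate 2, and jgi_Trias1_59384 and jgi_Trias1_190301 also lost their calls without D100 replicate 2.

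MFS transporters use ion gradients. Of 97 tested members 6 were higher (6.19%, against 3.13% over all genes) and none lower (0.846% over all genes). The median was -0.06, and 51 members were below 0, while 55.2% of all genes were above 0. jgi_Trias1_43836 had 23.4, 33.2 and 22.3 FPKM in D500, against 4, 5.71 and 4.49 FPKM in D100 (log2 fold change 2.24, standard error 0.22, limma adjusted p = 0.000638). jgi_Trias1_29530 had 7.06, 11.3 and 9.82 FPKM in D500, against 1.36, 1.86 and 0.80 FPKM in D100 (2.16, limma adjusted p = 0.00288). Both are of the DHA1 family, which exports drugs, as were jgi_Trias1_204111 and jgi_Trias1_134523, chosen after their values were seen, with changes of 1.87 and 1.42. The other pair were sugar transporters. The alpha-glucoside symporter jgi_Trias1_138828 changed by 1.35 and the myo-inositol transporter jgi_Trias1_39190, under 3 FPKM in every library, by 1.18. The NOISeq rule called 1 MFS gene higher and 3 lower. The 6 limma calls fell to 2 without D500 replicate 2 and to 3 without D500 replicate 3, and both sugar transporters lost theirs without D500 replicate 1, 2 or 3 or D100 replicate 2.

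Heat shock proteins hold and refold other proteins. Of 56 tested genes, 5 were higher (8.93%, against 3.13% over all genes) and none lower, with a median of 0.31. In 25 members all D500 libraries lay above all D100 libraries (44.6%, against 17.6% over all genes). jgi_Trias1_271370, of the small HSP20 family, had 3160.4, 3337 and 2325 FPKM in D500, against 243, 318 and 214 FPKM in D100 (log2 fold change 3.51, standard error 0.20, limma adjusted p = 3.06e-05). It was among the most abundant transcripts that changed. The second HSP20 gene, jgi_Trias1_53394, had 297, 382 and 442 FPKM in D500, against 30.2, 73.2 and 55.3 FPKM in D100 (log2 fold change 2.87, standard error 0.30, limma adjusted p = 0.000979). The next 3 were chosen after their values were seen. HSP70 (jgi_Trias1_80694) had 4108, 4283 and 4914 FPKM in D500, against 1147, 1769.8 and 1668 FPKM in D100 (log2 fold change 1.56, standard error 0.20, limma adjusted p = 0.00339). HtpG, the HSP90 entry (jgi_Trias1_152105), had 1755, 1774 and 2267 FPKM in D500, against 513, 801 and 782 FPKM in D100 (1.48, limma adjusted p = 0.00493), and a DnaJ homolog (jgi_Trias1_126914), the partner of HSP70, had 869, 970.1 and 1238 FPKM in D500, against 351, 485 and 459.6 FPKM in D100 (1.24, limma adjusted p = 0.00716). All 5 genes kept their calls when any 1 library was left out, and the matches of both HSP20 genes were weak (E = 1e-12 and 3e-14).

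The proteasome degrades proteins marked with ubiquitin. Of its 54 tested genes, 1 was called higher (1.85%, against 3.13% over all genes) and 53 were not called. The list had a median change of 0.39, and 46 members were above 0, as were 55.2% of all genes. In 27 members (50%, against 17.6% over all genes) the D500 libraries lay above the D100 libraries. The called gene, jgi_Trias1_117683, had 36.4, 34.1 and 32.2 FPKM in D500, against 16.2, 14.1 and 6.01 FPKM in D100 (1.53, limma adjusted p = 0.0259), rests on a weak match (E = 5e-13) and lost its call without D500 replicate 1, 2 or 3 or D100 replicate 2.

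**Figure D3:**
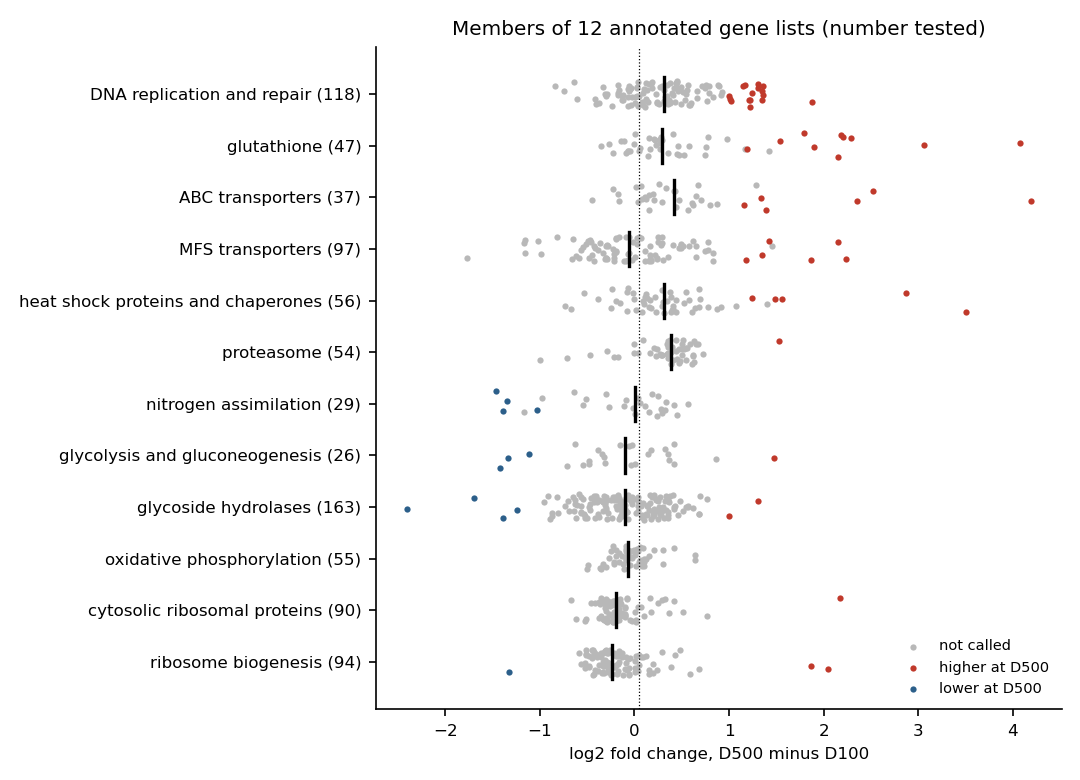
Each point is a tested member of 1 of 12 gene lists, with its log2 fold change (D500 minus D100) on the x axis. Black bars are list medians, from 0.42 for ABC transporters to -0.24 for ribosome biogenesis, and the dotted line is the median of all genes, 0.05.

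Genes for making ribosomes lay on the other side of the median. Over all genes tested, 55.2% were above 0. The 90 cytosolic ribosomal protein genes had a median change of -0.20 with 74 below 0, the 55 mitochondrial ones -0.17 with 41 below 0, and the 94 ribosome biogenesis genes -0.24 with 71 below 0. In the first and the last of these lists 24 members each had all D500 libraries below all D100 libraries (26.7% and 25.5%, against 11% over all genes). Few passed the threshold, and of the mitochondrial genes none was called by limma or the NOISeq rule. An unadjusted p under 0.05 was found for 4 of them, against 2046 of all 8747 genes tested. Of the cytosolic genes 1 was called, higher (1.11%, against 3.13% over all genes). This gene, jgi_Trias1_30601, has a match to ribosomal protein L3e with an E value of only 1e-08, and had 47.1, 45.2 and 52.5 FPKM in D500, against 9.2, 8.59 and 12.2 FPKM in D100. In ribosome biogenesis 2 genes were called higher (2.13%, against 3.13% over all genes) and 1 lower (1.06%, against 0.846%), all 3 with the entry SSF1/2. jgi_Trias1_35829 had 24.2, 11.7 and 9.63 FPKM in D500, against 3.13, 1.9 and 3.02 FPKM in D100 (2.05, limma adjusted p = 0.0102). jgi_Trias1_88288 had 15.5, 8.92 and 8.93 FPKM in D500, against 2.44, 1.18 and 3.44 FPKM in D100 (1.87, limma adjusted p = 0.0127). jgi_Trias1_78678, with the closest match of the 3 (E = 2e-84), was lower with 7.15, 9.32 and 8.61 FPKM in D500, against 24.3, 21.6 and 21.3 FPKM in D100 (-1.33, limma adjusted p = 0.0038).

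Of 32 tested genes for sulfur assimilation, 2 were higher at D500 (6.25%, against 3.13% over all genes) and none lower. Neither was called in the fit of all 4 groups or by the NOISeq rule. Phosphoadenosine phosphosulfate reductase (jgi_Trias1_138659), which makes sulfite from activated sulfate, had 34.96, 41.1 and 43.01 FPKM in D500, against 14.6, 11.9 and 6.32 FPKM in D100 (log2 fold change 1.83, standard error 0.27, limma adjusted p = 0.00633). The flavoprotein of sulfite reductase (jgi_Trias1_55307), which makes sulfide in the next step, had 39.7, 45.9 and 41.5 FPKM in D500, against 15.7, 18.2 and 12.7 FPKM in D100 (log2 fold change 1.40, standard error 0.18, limma adjusted p = 0.00295). Sulfate enters the cell through transporters, and the gene jgi_Trias1_135568, annotated in family 26 of sulfate carriers, had 21.1, 20.1 and 39.4 FPKM in D500, against 2.02, 2.27 and 2.73 FPKM in D100 (log2 fold change 3.0, standard error 0.27, limma adjusted p = 0.000427). Another pair of genes of this KEGG entry, chosen after their values were seen, were higher at low levels. jgi_Trias1_72504 had 9.01, 7.37 and 5.11 FPKM in D500, against 2.45, 2.01 and 2.11 FPKM in D100 and jgi_Trias1_149094 had 7.23, 9.29 and 11.3 FPKM in D500, against 2.94, 2.49 and 5.53 FPKM in D100. The call of jgi_Trias1_72504 was lost without D500 replicate 1 or 2 or D100 replicate 2 or 3, and that of jgi_Trias1_149094 whichever library other than D100 replicate 3 was left out.

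Metal and phosphate carriers move ions across the membranes of the cell and its organelles. Of 37 genes in the list named metal and iron uptake 2 were higher (5.41%) and of 66 for phosphate acquisition 1 (1.52%), against 3.13% over all genes. Members were found by words in their descriptions, so a call does not show that uptake rose. A zinc transporter (jgi_Trias1_59258) had 104, 126 and 141 FPKM in D500, against 31.8, 34.3 and 29.9 FPKM in D100 (log2 fold change 1.91, standard error 0.16, limma adjusted p = 0.000225). Its entry is solute carrier family 30, which carries zinc out of the cytosol. A copper transporter (jgi_Trias1_148352) had 40.04, 34.7 and 37.2 FPKM in D500, against 9.66, 13.1 and 13.5 FPKM in D100 (1.56, limma adjusted p = 0.00169). The mitochondrial phosphate carrier jgi_Trias1_26235 had 43.5, 36.5 and 45.05 FPKM in D500, against 17.6, 17.7 and 21.1 FPKM in D100 (1.11, limma adjusted p = 0.00595). The iron exporter of family 40, jgi_Trias1_51191, is outside the list for uptake and was lower, with 0.80, 1.14 and 0.70 FPKM in D500, against 5.58, 4.01 and 3.61 FPKM in D100 (-1.51, limma adjusted p = 0.0117). Its call was lost without D100 replicate 2.

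The downregulated genes were fewer and changed less. The largest fall was that of a hydrophobin, jgi_Trias1_320233, with 4.4, 5.83 and 0.75 FPKM in D500, against 29.9, 44.7 and 40.7 FPKM in D100 (log2 fold change -3.28, standard error 0.46, limma adjusted p = 0.00484). Hydrophobins are small surface proteins that make aerial hyphae and spores water-repellent. The D500 libraries themselves ranged widely, but the highest stayed well below the lowest D100 library. The small hydrophobin jgi_Trias1_57894 was also lower, with 662, 635 and 579 FPKM in D500, against 977, 1357 and 1908 FPKM in D100 (-1.12, limma adjusted p = 0.0262), while another hydrophobin, jgi_Trias1_59451, was higher, with 34, 28.8 and 27.96 FPKM in D500, against 10.8, 8.97 and 9.33 FPKM in D100 (1.55, limma adjusted p = 0.00125). These 3 genes are the called members among 10 tested genes of the conidiation list, which had a median of -0.45. Of the list 1 gene was higher (10%, against 3.13% over all genes) and 2 were lower (20%, against 0.846%). Its search words include hydrophobin, so the list does not mark spore formation alone. The call of jgi_Trias1_57894 was lost without D500 replicate 1, 2 or 3 or D100 replicate 2 or 3. Whether spore formation had a part in the other results was not tested.

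Some enzymes of fungal denitrification and nitrogen use were lower at D500. Of 29 tested genes for nitrogen assimilation, 4 were lower (13.8%, against 0.846% over all genes) and none higher. The copper-containing nitrite reductase jgi_Trias1_64276, which reduces nitrite to nitric oxide, had 71.3, 83.9 and 70.96 FPKM in D500, against 185, 196 and 252 FPKM in D100 (log2 fold change -1.47, standard error 0.16, limma adjusted p = 0.00137). The fungal nitric oxide reductase jgi_Trias1_136021, the P450 that makes nitrous oxide from it, had 686, 999 and 657 FPKM in D500, against 1724, 1884 and 2275 FPKM in D100 (log2 fold change -1.34, standard error 0.20, limma adjusted p = 0.00669). Both were lower in every D500 library and kept their calls when any 1 library was left out. Urate oxidase (jgi_Trias1_29632), which opens the breakdown of purines to ammonia, had 115, 126 and 201 FPKM in D500, against 324, 363 and 458 FPKM in D100 (log2 fold change -1.39, standard error 0.23, limma adjusted p = 0.0107), and nitrate reductase (jgi_Trias1_41338) had 3.77, 4.98 and 5.31 FPKM in D500, against 12.6, 10.4 and 8.89 FPKM in D100 (-1.03, limma adjusted p = 0.0282). Urate oxidase lost its call without D500 replicate 2, nitrate reductase whichever library other than D100 replicate 3 was left out, and no nitrogen gene was called in the fit of all 4 groups.

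Central carbon metabolism changed in single genes. Of 26 genes of glycolysis and gluconeogenesis, 3 were lower (11.5%, against 0.846% over all genes) and 1 higher (3.85%, against 3.13%), with a median of -0.10. Pyruvate decarboxylase, the first step of fermentation to ethanol, gave calls in both directions. The abundant gene jgi_Trias1_187777 had 1351, 1362 and 2266 FPKM in D500, against 3257, 4510.0 and 4600.2 FPKM in D100 (-1.34, limma adjusted p = 0.0167), and the weakly expressed gene jgi_Trias1_63019 had 8.81, 10.6 and 9.31 FPKM in D500, against 3.3, 3.58 and 1.77 FPKM in D100 (1.48, limma adjusted p = 0.0116). An enolase gene, jgi_Trias1_205633, had 9.02, 8.48 and 9.76 FPKM in D500, against 24.2, 29.3 and 24.7 FPKM in D100 (log2 fold change -1.42, standard error 0.17, limma adjusted p = 0.00206). Hexokinase (jgi_Trias1_132127), which phosphorylates glucose, had 481, 292 and 221 FPKM in D500, against 656, 695 and 692 FPKM in D100 (-1.11, limma adjusted p = 0.0379). The 3 lower calls fell to 1 without D500 replicate 2, D100 replicate 2 or D100 replicate 3, and enolase kept its call in each of these fits. The higher gene lost its call without D500 replicate 2.

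In the citrate cycle, 1 of 33 genes was higher (3.03%, against 3.13% over all genes) and none lower, with a median of -0.10. In 11 members all D500 libraries lay below all D100 libraries (33.3%, against 11% over all genes). jgi_Trias1_67943, with the KEGG entry of the succinate dehydrogenase flavoprotein, had 16.9, 15.3 and 9.34 FPKM in D500, against 1.35, 5.91 and 2.22 FPKM in D100 (1.95, limma adjusted p = 0.0253). Its call was lost without D500 replicate 1 or 2 or D100 replicate 3. Its match (E = 3e-58) is less close than that of jgi_Trias1_28403 (E = 8e-71), another gene of the entry, chosen after its values were seen. That gene had 0.86, 0.68 and 0.35 FPKM in D500, against 2.19, 2.07 and 1.7 FPKM in D100 and was not called (-0.88, limma adjusted p = 0.0879). jgi_Trias1_283689, also of this entry, had 1.87, 1.7 and 1.39 FPKM in D500, against 0.33, 0.17 and 0.34 FPKM in D100 and was too low to be tested. Citrate synthase (jgi_Trias1_200927), which opens the cycle, had 421, 399 and 463 FPKM in D500, against 394, 516 and 474 FPKM in D100, with a log2 fold change of -0.10 (standard error 0.15). Isocitrate dehydrogenase (jgi_Trias1_139899) had 192, 206 and 149 FPKM in D500, against 219.9, 259 and 209 FPKM in D100 and a change of -0.34 (standard error 0.17). The iron-sulfur subunit of succinate dehydrogenase (jgi_Trias1_51244) had 448, 527 and 555 FPKM in D500, against 488, 555 and 502 FPKM in D100 and a change of -0.02 (standard error 0.15). In citrate synthase and the succinate dehydrogenase subunit the doses overlapped, and in isocitrate dehydrogenase all D500 libraries lay below all D100 libraries, though the test was not passed. None of the 55 genes for oxidative phosphorylation was called by limma or the NOISeq rule, and 7 had an unadjusted p under 0.05, against 2046 of all 8747 genes tested. The changes of the 55 genes ran from -0.50 to 0.64, and the median was -0.07. The C2H2 zinc finger gene jgi_Trias1_65433 had 62.1, 70.4 and 89.7 FPKM in D500, against 48.4, 59.1 and 65.4 FPKM in D100, and its change of 0.35 (standard error 0.19, limma adjusted p = 0.299) did not pass the threshold.

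Among 163 tested glycoside hydrolase genes, 4 were lower (2.45%, against 0.846% over all genes) and 2 higher (1.23%, against 3.13%). The alpha-L-fucosidase jgi_Trias1_146605, which removes fucose from sugar chains, had 18.6, 18.04 and 16.5 FPKM in D500, against 104, 105 and 85.3 FPKM in D100 (log2 fold change -2.40, standard error 0.15, limma adjusted p = 4.96e-05). The chitinase jgi_Trias1_74478, of the family that Trichoderma uses to digest the walls of other fungi, had 1.55, 0.71 and 0.87 FPKM in D500, against 4.16, 5.41 and 7.42 FPKM in D100 (-1.70, limma adjusted p = 0.0111). An endo-1,3-beta-glucosidase (jgi_Trias1_30066) had 3.08, 3.8 and 4.81 FPKM in D500, against 7.29, 11.5 and 18.7 FPKM in D100 (-1.39, limma adjusted p = 0.0381), and a beta-glucosidase (jgi_Trias1_203210, chosen after its values were seen) changed by -1.24. The higher ones were a family 93 hydrolase (jgi_Trias1_85133) with 9.3, 13.3 and 11.8 FPKM in D500, against 4.88, 3.88 and 3.34 FPKM in D100 (1.31, limma adjusted p = 0.0116) and an endo-1,3(4)-beta-glucanase (jgi_Trias1_131873), whose change of 1.0 was just inside the threshold. The fucosidase kept its call whichever library was left out, jgi_Trias1_85133 lost it without D500 replicate 2 or D100 replicate 2, and jgi_Trias1_131873 without D500 replicate 1 or 2 or D100 replicate 1. The 4 lower calls fell to 1 without D500 replicate 2 or D100 replicate 2 and to 2 without D500 replicate 1, D500 replicate 3 or D100 replicate 3. A hexosaminidase gene (jgi_Trias1_157721), which is not a member by its description, had 80.02, 40.9 and 26.04 FPKM in D500, against 172, 126 and 133 FPKM in D100 (-1.66, limma adjusted p = 0.0279), and its call was lost whichever library other than D500 replicate 1 was left out.

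**Figure D4:**
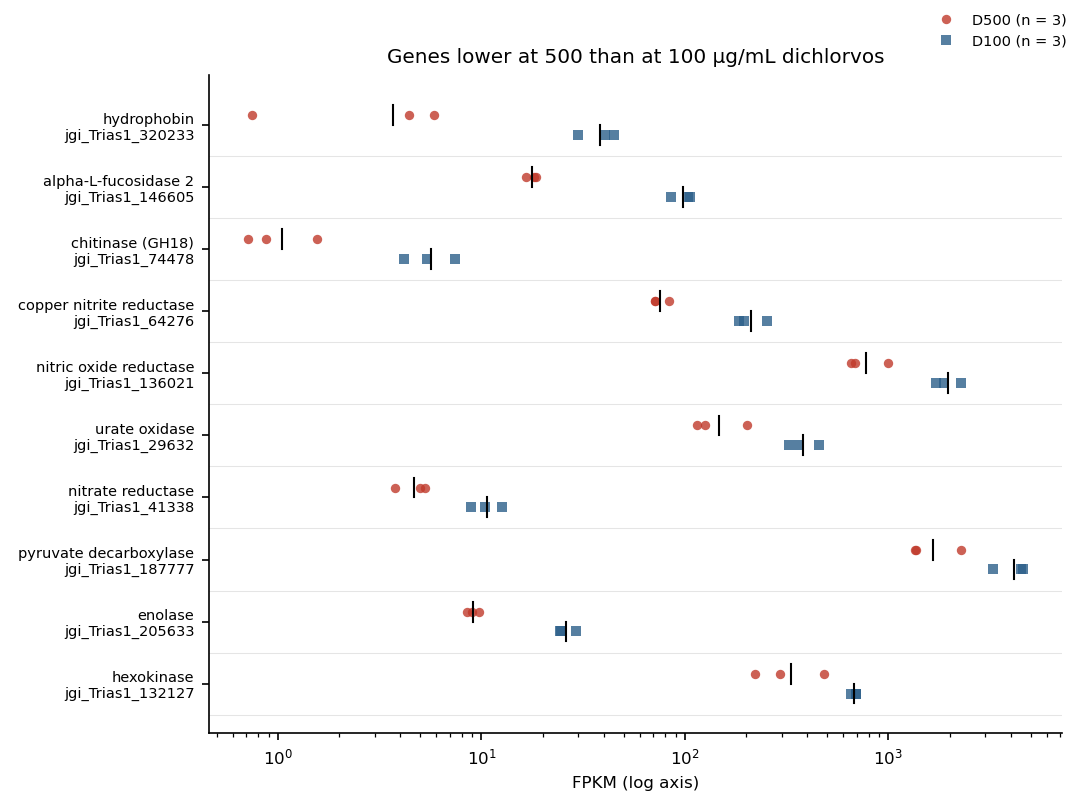
Each row is a gene, with the 3 D500 libraries (circles) above the 3 D100 libraries (squares), FPKM on a log axis and group means as vertical bars. In all 10 genes every D500 library lies below every D100 library, as in every gene called lower. Hydrophobin jgi_Trias1_320233 shows the largest gap, with 4.4, 5.83 and 0.75 FPKM in D500, against 29.9, 44.7 and 40.7 FPKM in D100.

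Other enzymes among the largest falls act on sugars, alcohols and vitamins. Pyridoxine 4-dehydrogenase (jgi_Trias1_42386), which interconverts forms of vitamin B6, had 13.2, 12.6 and 12.9 FPKM in D500, against 65.4, 65.03 and 49.6 FPKM in D100 (log2 fold change -2.12, standard error 0.17, limma adjusted p = 0.00017). Alcohol oxidase (jgi_Trias1_61116), which makes aldehydes and hydrogen peroxide, had 1.84, 1.59 and 2.31 FPKM in D500, against 11.2, 12.1 and 10.9 FPKM in D100 (log2 fold change -2.09, standard error 0.21, limma adjusted p = 0.000651). Galactonate dehydratase (jgi_Trias1_41617) of galactose breakdown had 32.3, 27.2 and 56.6 FPKM in D500, against 93.3, 127 and 196 FPKM in D100 (-1.82, limma adjusted p = 0.0147). The D100 libraries were above the D500 libraries throughout, and the first 2 of these genes kept their calls when any 1 library was left out, while galactonate dehydratase lost its call without D500 replicate 1 or 2 or D100 replicate 2. The reductases jgi_Trias1_57207 and jgi_Trias1_156837, annotated as a 3-oxoacyl-[acyl-carrier protein] reductase and a 2-deoxy-D-gluconate 3-dehydrogenase, changed by -1.63 and -1.42. A carrier of family 10, jgi_Trias1_127987, changed by -1.41 and lost its call without D500 replicate 1 or 2 or D100 replicate 2 or 3. Of the falls without a named function, jgi_Trias1_87854 had 4.88, 3.65 and 3.74 FPKM in D500, against 17.99, 17.8 and 20.6 FPKM in D100 (-1.96, limma adjusted p = 0.000632) and jgi_Trias1_59559 had 2.68, 4.01 and 3.9 FPKM in D500, against 9.95, 16.6 and 22.7 FPKM in D100 (-1.89, limma adjusted p = 0.00839).

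Small numbers of calls occurred in the other lists. For the peroxisome and fatty acid oxidation, 4 of 68 genes were higher (5.88%, against 3.13% over all genes) and 1 lower (1.47%, against 0.846%). The acyl-CoA synthetase jgi_Trias1_148031, which activates fatty acids, had 34.3, 25.96 and 19.9 FPKM in D500, against 6.66, 10.1 and 7.52 FPKM in D100 (1.59, limma adjusted p = 0.00679), the CoA-transferase entry jgi_Trias1_37696 changed by 1.23, and acetyl-CoA acyltransferase 1 (jgi_Trias1_171388), the last step of beta-oxidation, had 2582, 2673 and 2211 FPKM in D500, against 1199.7, 1263 and 983 FPKM in D100 (1.12, limma adjusted p = 0.00605). An oleate-induced peroxisomal protein (jgi_Trias1_39028) changed by 1.06, and the carnitine carrier jgi_Trias1_133357 by -1.03. jgi_Trias1_171388 and jgi_Trias1_39028 were chosen after their values were seen. The call of jgi_Trias1_37696 was lost without any D500 replicate or D100 replicate 2, that of jgi_Trias1_39028 without D100 replicate 3, and that of jgi_Trias1_133357 without D500 replicate 2 or D100 replicate 2.

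Amino acid breakdown had 2 of 43 genes higher and 2 lower (4.65% each, against 3.13% and 0.846% over all genes). The fumarylacetoacetase entry jgi_Trias1_167407, with a weak match (E = 8e-06), had 37.1, 43.2 and 48.9 FPKM in D500, against 2.47, 7.64 and 10.3 FPKM in D100 (2.65, limma adjusted p = 0.00582), and the D-amino-acid oxidase entry jgi_Trias1_60293 changed by 1.29. The enzyme 4-hydroxyphenylpyruvate dioxygenase (jgi_Trias1_42711) of tyrosine breakdown had 650.5, 513 and 437 FPKM in D500, against 1092, 1137 and 1016 FPKM in D100 (-1.04, limma adjusted p = 0.0116), and threonine aldolase (jgi_Trias1_55508) changed by -1.03. Of these 4, the fumarylacetoacetase entry kept its call when any 1 library was left out. The call of jgi_Trias1_42711 was lost without D500 replicate 2 or 3 or D100 replicate 2, that of jgi_Trias1_55508 without D500 replicate 1 or 2 or D100 replicate 2 or 3, and that of jgi_Trias1_60293 whichever library was left out.

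Of 60 genes for aminoacyl-tRNA synthetases, 3 were higher (5%, against 3.13% over all genes), the leucyl entries jgi_Trias1_145211 and jgi_Trias1_137985 (1.41 and 1.20) and the aspartyl entry jgi_Trias1_129804 (1.24), all with E values above 1e-50. The count was 1 without D500 replicate 1, 0 without D500 replicate 2, D500 replicate 3, D100 replicate 2 or D100 replicate 3, and 5 higher and 1 lower without D100 replicate 1. Of 131 genes for kinases and signalling, 3 were higher (2.29%, against 3.13% over all genes). The first was a MAP kinase kinase kinase (jgi_Trias1_194352) with 6.13, 7.22 and 6.27 FPKM in D500, against 1.07, 1.78 and 1.62 FPKM in D100 (1.61, limma adjusted p = 0.00493). The others were a receptor of the PTH11 type by its protein match (jgi_Trias1_193614) and a death-associated protein kinase entry (jgi_Trias1_98531), which changed by 1.82 and 1.40. The first kept its call in each fit with 1 library left out, the other pair lost theirs without D500 replicate 1 or 2 or D100 replicate 2 or 3, and jgi_Trias1_98531 also without D500 replicate 3. Of 141 transcription factor genes, 1 was higher (0.709%, against 3.13% over all genes). It was the GAL4-type gene jgi_Trias1_199429 with 98.7, 111 and 168 FPKM in D500, against 29.7, 30.1 and 34.8 FPKM in D100 (log2 fold change 1.93, standard error 0.21, limma adjusted p = 0.00118). In sterol biosynthesis 1 of 23 genes was lower (4.35%, against 0.846% over all genes), the sterol reductase entry jgi_Trias1_445889 (-1.14). In secondary metabolism 1 of 19 was lower (5.26%, against 0.846%), the peptide synthetase jgi_Trias1_71435 (-1.15). Both of these calls were lost without D500 replicate 1 or 2 or D100 replicate 2 or 3. No gene was called by limma among 53 for proteases, 32 for amino acid and peptide transporters, 16 for chitin and glucan synthesis, 2 for esterases and 2 for acetylcholinesterase, the target of dichlorvos in animals. An unadjusted p under 0.05 was found for 14, 9, 2, 0 and 0 of these genes, against 2046 of all 8747 genes tested. The NOISeq rule called 1 amino acid or peptide transporter lower and no other gene of these lists. The acetylcholinesterase gene jgi_Trias1_311981 had 2.46, 1.94 and 1.67 FPKM in D500, against 2.01, 1.65 and 2.23 FPKM in D100 and jgi_Trias1_161918, which has this entry further down its list of matches, had 5.13, 4.6 and 4.7 FPKM in D500, against 6.82, 6.99 and 6.57 FPKM in D100.

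A level of 1 FPKM was also used to ask which genes were added or lost. By this level, 60 genes were added (at least 1 in every D500 library and under 1 in every D100 library) and 28 were lost. Of the added genes 48 were tested and 22 called higher, and of the lost genes 19 were tested and 6 called lower. The doses lie apart in these genes by the way they were picked, and the test used the same libraries. Some also passed the filter on the mean only through the dose where they were higher. Their calls and p-values therefore add no separate support. Some of the added genes crossed the level by little, such as jgi_Trias1_249228, chosen after its values were seen, with 1.08, 1.22 and 1.24 FPKM in D500, against 0.80, 0.95 and 0.80 FPKM in D100. An annotation that names a function was present for 33 added and 12 lost genes. The highest of the added genes was jgi_Trias1_43984, without a named function, with 15.2, 17.04 and 22.5 FPKM in D500, against 0, 0 and 0.31 FPKM in D100 (log2 fold change 4.12, standard error 0.25, limma adjusted p = 3.57e-05). The hypothetical gene jgi_Trias1_70867 had 16.04, 9.23 and 7.77 FPKM in D500 and was listed at 0 in all 3 D100 libraries (limma adjusted p = 0.000225). A 3-methylcrotonyl-CoA carboxylase subunit of leucine breakdown, jgi_Trias1_81301, had 7.08, 5.57 and 9.39 FPKM in D500, against 0.15, 0.46 and 0.30 FPKM in D100 (2.66, limma adjusted p = 0.000724). The methyltransferase jgi_Trias1_57955 and the transferase jgi_Trias1_74481, described above, complete the 5 highest. All of the lost genes were weakly expressed. jgi_Trias1_321405 had 0.55, 0.55 and 0.56 FPKM in D500, against 2.72, 5.08 and 3.28 FPKM in D100, jgi_Trias1_73986 had 0.69, 0.97 and 0.99 FPKM in D500, against 2.86, 2.79 and 2.75 FPKM in D100 and jgi_Trias1_237644 had 0.71, 0 and 0 FPKM in D500, against 2.13, 3.69 and 2.13 FPKM in D100. jgi_Trias1_58225 and jgi_Trias1_449193 were listed at 0 in all 3 D500 libraries and had 1.23, 5.17 and 2.43 and 2.38, 3.3 and 2.37 FPKM in D100. None of these 5 has a named function.

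At the level of annotated functions, little was gained or lost. KEGG entries with a gene at 1 FPKM or more in every library numbered 2941 at D500 and 2924 at D100, and 2916 were shared. Entries with a gene in every D500 library and none in any D100 library numbered 3, and the reverse was found for 1. The 3 added entries were D-aminopeptidase (jgi_Trias1_62572) with 2.27, 2.41 and 2.32 FPKM in D500, against 0.83, 0.57 and 0.98 FPKM in D100, an atypical dual specificity phosphatase (jgi_Trias1_198836) with 4.64, 2.64 and 1.01 FPKM in D500, against 0.98, 0.67 and 0.98 FPKM in D100, and protochlorophyllide reductase (jgi_Trias1_171903) with 1.46, 2 and 1.12 FPKM in D500, against 0.54, 0.74 and 0.36 FPKM in D100. The lost entry was ribonuclease T1 (jgi_Trias1_23274), a secreted nuclease, with 0.51, 0.50 and 0 FPKM in D500, against 1, 2.07 and 3.51 FPKM in D100. None of these 4 genes passed the test (limma adjusted p = 0.0674, 0.204, 0.176 and 0.09).

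The 6 libraries of D1000 and CK share none with this comparison, and the same genes were followed in them. Of the 274 genes higher at D500 than at D100, 269 could be tested at D1000 against CK, and 232 of them (86.2%) were higher at D1000 and none was lower, while 15.9% of all genes were higher there. Of the 74 lower genes, 71 could be tested, and 39 (54.9%) were lower at D1000 and none was higher, against 6.17% lower of all genes. At D1000 against CK, 1492 of 8953 tested genes were higher (16.7%) and 539 lower (6.02%). Of these, 15.5% were also higher and 7.24% also lower at D500 than at D100, against 3.13% and 0.846% over all genes of that comparison. CK replicate 1 stood apart, with correlations of 0.897 and 0.896 to the other CK libraries, which correlated with 0.984. Without it, 2401 genes were higher and 692 lower at D1000. Then 259 of 269 (96.3%) were higher and none was lower, against 26.0% higher of all genes, and 55 of 71 (77.5%) were lower and 1 was higher, against 7.94% lower of all genes. Of the 2401 and 692 genes, 10.8% were also higher and 7.95% also lower at D500 than at D100.

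Levels over the 4 doses took different shapes. The methyltransferase jgi_Trias1_61459 had 15.9, 11.6 and 18.6 FPKM in CK and 3572, 2647 and 2886 in D1000, so that its mean was higher at each step above D100. The transferase jgi_Trias1_74481 had 0.66, 0.82 and 0 FPKM in CK and 416, 521 and 461 in D1000, so that most of its increase came above D500. The monooxygenase jgi_Trias1_201383 had 31.6, 36.1 and 38.2 FPKM in CK and 509, 618 and 559 in D1000, and was highest at D500. Phosphoadenosine phosphosulfate reductase (jgi_Trias1_138659) had 79.6, 25.3 and 16.98 FPKM in CK and 94.5, 93.9 and 76.2 in D1000, with its lowest values at D100. The nitric oxide reductase jgi_Trias1_136021 had 664, 3533 and 3729.8 FPKM in CK and 202, 132 and 142 in D1000. These levels are given as a description. In the reductase CK replicate 1 was the highest CK library and in the nitric oxide reductase the lowest, far from the other CK libraries in both.

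**Figure D5:**
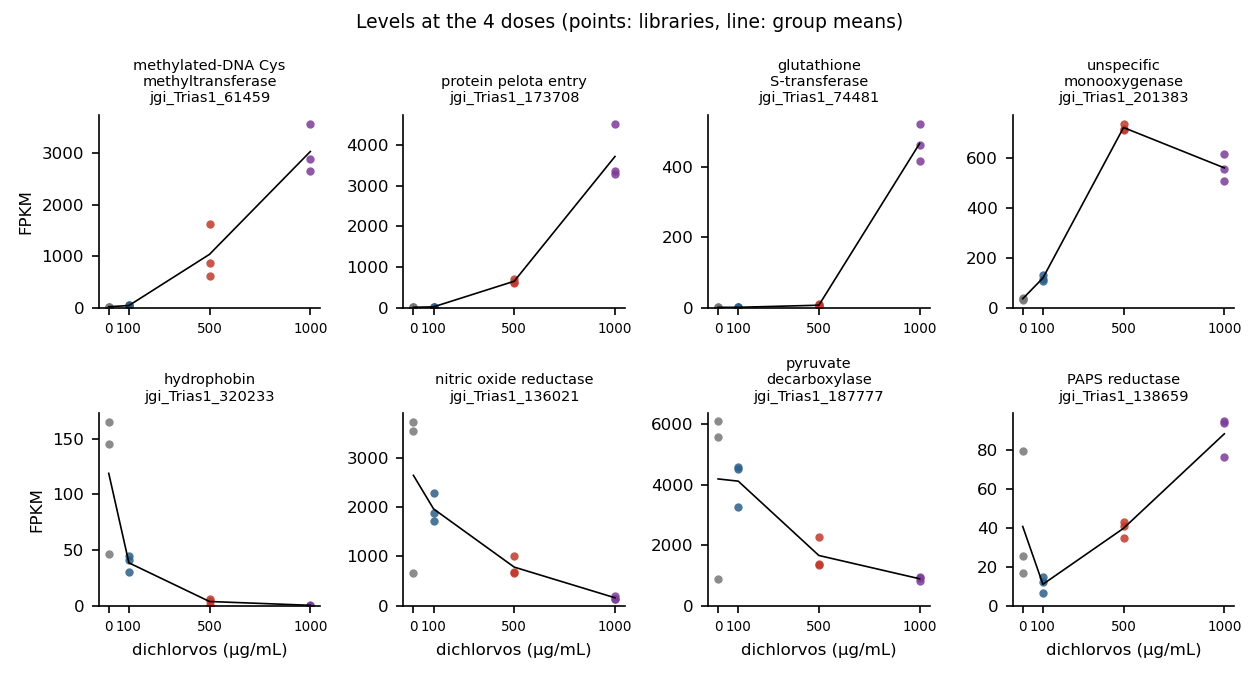
FPKM of 8 genes (y axes, linear from 0) against the dose of dichlorvos (x axes, μg/mL), with 1 point per library (n = 3 per dose) and lines through the group means. The methyltransferase jgi_Trias1_61459 rises at 500 and again at 1000 μg/mL, and the monooxygenase jgi_Trias1_201383 peaks at 500 μg/mL with 740.1, 717 and 716 FPKM.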

How the data were processed

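RNA of the 12 libraries was sequenced, and the authors deposited FPKM for 11647 genes of the Trias1 genome. The submitters' processing notes name BWA, Bowtie and RSEM, with no role or version. FPKM are already scaled to gene length and library size, so depth is not known directly. Low values repeat in steps, which put the depth of 5 libraries at 0.973 to 1.01 times that of D500 replicate 2. FPKM summed to between 912751 and 955260 per library. Correlations of log2(FPKM + 1) were 0.970 to 0.983 within D500, 0.968 to 0.982 within D100 and 0.942 to 0.963 between them. Value columns with no assigned library numbered 0. The table also holds KEGG, Gene Ontology and protein database matches, which gave all gene names; 0 identifiers matched the RefSeq list at hand, so it was not used.

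The libraries of D500 and D100 were fitted with limma 3.58.1 (R 4.3.3, intensity trend) on log2(FPKM + 1) for genes with a mean of at least 1 FPKM. Fold changes are on this scale, which understates changes of low genes. A called gene that averaged under 1 FPKM at a dose passed the filter only through the other dose, so its call adds no separate support. Outside the glutathione list this holds, among others, for jgi_Trias1_140627, jgi_Trias1_39190, jgi_Trias1_60293, jgi_Trias1_98531 and jgi_Trias1_51191. A call needed an absolute change above 1 and an adjusted p (Benjamini-Hochberg, over all tested genes) under 0.05; 589 passed on the adjusted p alone and 2046 had an unadjusted p under 0.05. In simulated data with 8747 genes for this comparison, 96 of 100 changes of 1.5 and all 100 of 3 on the log2 scale were recovered, with 4 false calls. The simulated noise was independent between genes, with a spread smoothed over genes of similar level. It held no spread of single genes and no deviation shared by the genes of a library. These numbers therefore check the code and do not give the error rate of the real calls. The NOISeq rule (probability above 0.8, 0 replaced by 0.01) was rewritten from its definition as an alternative. Others were pseudocounts of 0.1 and 5, no filter or a mean of 5 FPKM, TPM, median centring, the replicate block, no trend, fits with D1000 or all groups, and leaving out each library.

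Genes were named by a rule: the 15 largest annotated and 2 largest other changes in each direction, called members of the 35 gene lists (at most 2 in each direction where more than 4 were called), the 5 highest genes added or lost, and 5 genes of the study. Lists were searched by words in the first KEGG description or a named protein match. The members, lists and rule were chosen with earlier results of these data known; search words were corrected and the acetylcholinesterase list added once the descriptions had been seen, so lists are described by counts and medians with no test.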

Additional observations from a re-analysis of the deposited data

How the results depend on the processing

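The count of higher genes (274) moved by over 1.5 times with a pseudocount of 5 (171), in the fit with all 4 groups (175) and by the NOISeq rule (104), and ranged from 150 to 293 with 1 library left out. The count of lower genes (74) moved so far with a pseudocount of 5 (43), with the replicate block (114), in the fit with all 4 groups (24) and by the NOISeq rule (30), and ranged from 28 to 94 with 1 library left out, where D500 replicate 2 gave the lowest and D100 replicate 1 the highest counts. The remaining alternatives kept both counts within 1.5 times. Of the called genes, 95 higher and 22 lower ones were also called by the NOISeq rule. Higher genes made up 69.5% of the calls with each library centred on its median, which moved the median change of all genes to -0.05, and 7 lists with medians near 0 then changed sign. No named gene that was called changed direction under any alternative. Libraries with the same replicate number deviated together with correlations of 0.419, 0.0698 and 0.404, against -0.454 to 0.106 for unlike numbers. Not every library correlated best with its own number. Whether the numbers pair the libraries is not known from the labels, and the main fit did not pair them. The replicate block gave 329 higher and 114 lower genes. Restricting lists to KEGG matches with an E value of at most 1e-50, chosen after the data were seen, left 14 of 16 calls for DNA replication and repair, 7 of 10 for glutathione, 4 of 6 for ABC transporters and 3 of 5 for heat shock proteins. FPKM hold no counts, so low genes have no counting interval, and 3 libraries against 3 cannot reach an exact two-sided permutation p below 0.1 for a single gene.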

Other observations

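Called genes outside the lists, chosen after their values were seen, belonged to protein quality control and to the handling of small molecules. STIP1 (jgi_Trias1_253566), which passes clients between HSP70 and HSP90, had 224, 205 and 225 FPKM in D500, against 63.7, 102 and 95.7 FPKM in D100 (log2 fold change 1.34, standard error 0.19, limma adjusted p = 0.00493). A STIP1-like ubiquitin ligase (jgi_Trias1_434840) changed by 1.56, the ATPase ClpB (jgi_Trias1_59635), which pulls apart aggregated protein, by 1.05, and the transitional endoplasmic reticulum ATPase (jgi_Trias1_138220), which extracts ubiquitin-marked proteins, by 1.06. The first pair kept their calls when any 1 library was left out. ClpB lost its call without D500 replicate 2 or 3 or any D100 replicate, and the endoplasmic reticulum ATPase without D500 replicate 1 or 2 or D100 replicate 2 or 3.

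A haloalkane dehalogenase entry (jgi_Trias1_61111), an enzyme that splits carbon-halogen bonds, had 62.5, 94.7 and 177 FPKM in D500, against 20.5, 30.3 and 14.98 FPKM in D100 (log2 fold change 2.22, standard error 0.37, limma adjusted p = 0.0116), and its call was lost without D500 replicate 2. Transaldolase (jgi_Trias1_73965) of the pentose phosphate pathway had 122, 139 and 195 FPKM in D500, against 26.4, 17.4 and 29.3 FPKM in D100 (log2 fold change 2.59, standard error 0.24, limma adjusted p = 0.000447). The aldehyde-oxidising entry jgi_Trias1_144977 had 398, 358 and 323 FPKM in D500, against 109, 106 and 92.5 FPKM in D100 (1.80, limma adjusted p = 0.000195). Among lower genes, catechol 1,2-dioxygenase (jgi_Trias1_188272), which opens aromatic rings, had 45.3, 45.4 and 42.5 FPKM in D500, against 115, 93.4 and 90.2 FPKM in D100 (-1.14, limma adjusted p = 0.00349), formate dehydrogenase (jgi_Trias1_25945) had 59.7, 55.01 and 59.9 FPKM in D500, against 147, 107 and 139 FPKM in D100 (-1.14, limma adjusted p = 0.00493), and NADPH oxidase (jgi_Trias1_65947), which makes superoxide, had 38.5, 30.5 and 34.4 FPKM in D500, against 78.3, 72.9 and 84.2 FPKM in D100 (-1.17, limma adjusted p = 0.00338). Sarcosine oxidase (jgi_Trias1_55267) changed by -1.32 and a protein-repair methyltransferase (jgi_Trias1_254632) by -1.32. These last 7 genes kept their calls when any 1 library was left out.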
